A study of Mus musculus with 6 samples.

Results

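The early neutrophil primary granule genes are 7 genes that developing neutrophils use at the promyelocyte stage: Mpo, Elane, Prtn3, Ctsg, Cebpe, Gfi1 and Ms4a3. They were chosen by gene symbol, and all 7 were found among the 15443 symbols of the table. RNA was measured in cultures of bone marrow cells from wild-type (WT) C57BL/6J mice, a laboratory inbred strain. In the midkine group the cells received human recombinant MIDKINE at 10 ng/ml together with FLT3LG at 50 ng/ml for 3 days (3 libraries, replicates 3, 4 and 5). In the control group they received FLT3LG at 50 ng/ml alone for the same 3 days (3 libraries, replicates 1, 2 and 4). FLT3LG is a cytokine that favours the growth of dendritic cells from marrow progenitors, and midkine is a secreted, heparin-binding growth factor. The comparison asks how midkine changes the transcripts of marrow cells kept under FLT3LG. The age and sex of the mice, and whether the replicates came from separate mice or cultures, are not stated in the labels, so the p-values describe only the variation among these libraries, which may be technical.

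Neutrophils fill their granules in waves. At the promyelocyte stage, primary or azurophil granules are loaded with myeloperoxidase (Mpo) and with the serine proteases neutrophil elastase (Elane), proteinase 3 (Prtn3) and cathepsin G (Ctsg). The transcription factor GFI1 restrains alternative myeloid programmes, and C/EBPε, the product of Cebpe, drives the later switch to secondary granules. MS4A3 is a membrane protein of granulocyte-monocyte progenitors and their close descendants, and it is also found in basophils. In mature neutrophils these transcripts are low, so in marrow they mark precursors rather than mature cells.

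Libraries held 6042165 to 7233960 reads in the midkine group and 5985684 to 6415043 in the control group. Midkine 5 stood apart from the other 5 libraries: the first principal component (57.1% of the variance) placed it at 86.0 and the other 5 between −28.2 and 1.94. Mitochondrial ribosomal RNA took 0.377% of its reads, against 4.12 to 6.16% in the other 5 libraries. The part of these differences in the results below was not tested, and the tests of the 7 genes and the counts for each gene list are given with and without midkine 5. Every measured cell type marker had reads in every library, among them all 10 dendritic cell genes, all 7 macrophage genes and all 8 B cell genes. In such bulk RNA, fewer cells of a type and less RNA per cell cannot be told apart.

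All 7 genes had a higher mean level with midkine, and 5 of them (Mpo, Prtn3, Ctsg, Gfi1 and Ms4a3) lay above the highest control in every midkine library. Elane and Cebpe overlapped between the groups. With all 6 libraries, 0 of the 7 passed the limma threshold (adjusted p under 0.05 over all 13543 genes tested), where the background was 0% of genes higher and 0% lower. By unadjusted p under 0.05, the same 5 genes were higher and 0 lower, while 10.4% of all genes tested were higher and 9.3% lower by that rule. Of all genes tested, 15.5% had every midkine library above every control and 15.3% every midkine library below. Without midkine 5, limma called 5 of 7 higher (Elane, Mpo, Ctsg, Gfi1 and Ms4a3) and 0 lower, against 9.92% of all genes called higher and 8.52% called lower. On those 5 libraries edgeR and DESeq2 called the same 5 genes higher, against 10.5% (edgeR) and 9.3% (DESeq2) of the genes each tested. With all 6 libraries edgeR called 0 of the 7 (0.0443% of all genes higher) and limma with array weights, which weigh down libraries that vary more, called those 5 (19.1% of all genes higher). The median log2 fold change over the 7 genes, midkine over control, was 0.64 with all libraries and 0.55 without midkine 5, where all genes tested had −0.0040 and −0.0022.

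**Figure D1:**
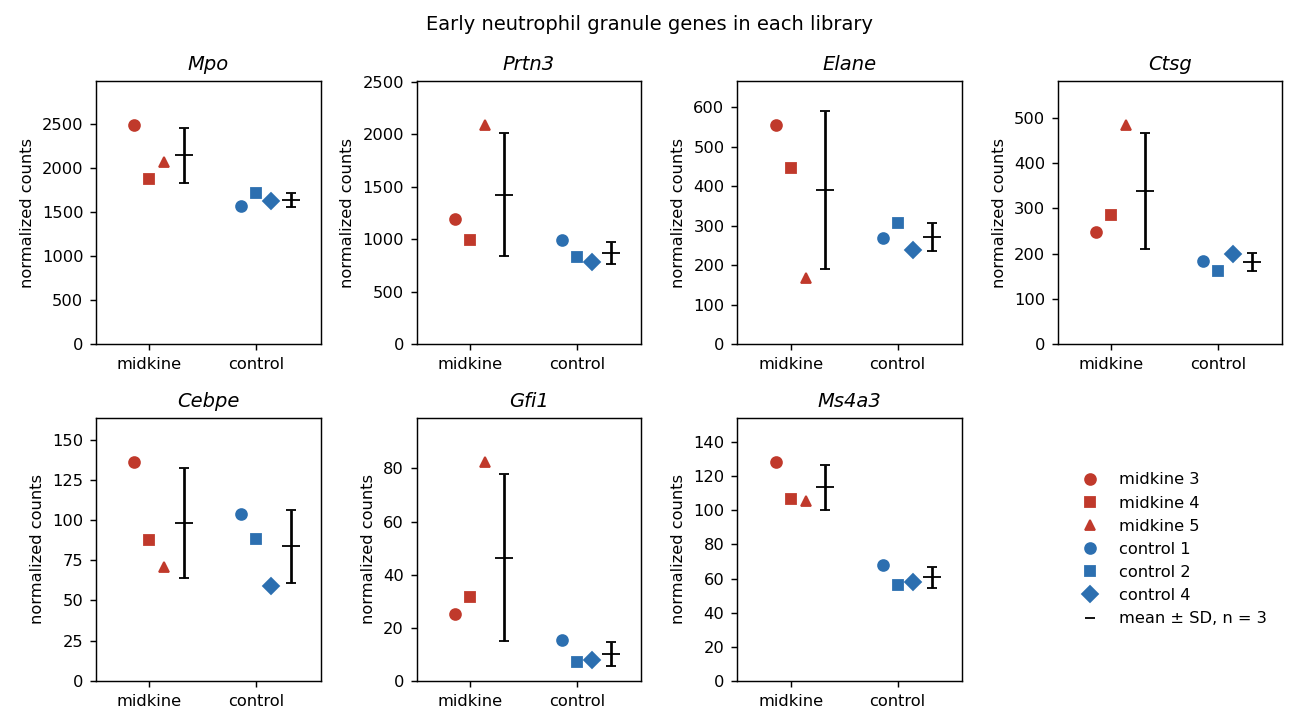
Normalized counts (vertical axes, each from 0) of the 7 genes in the 3 midkine (red) and 3 control (blue) libraries, with the mean and SD of each group in black. Midkine 5, the triangle, is the lowest library for Elane (168) and the highest for Prtn3 (2090), Ctsg (484) and Gfi1 (82.6).

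Mpo encodes the peroxidase that makes hypochlorous acid in the phagosome. The gene runs along the plus strand of chromosome 11 in GRCm38, from 87793581 to 87804413. It had 2486, 1871 and 2070 normalized counts in midkine 3, 4 and 5, against 1566, 1717 and 1626 in control 1, 2 and 4. Every midkine library was above every control, with midkine 3 the highest and midkine 4 closest to the controls. The group means were 2142 ± 314 with midkine and 1637 ± 76.0 in control (SD, n = 3 each), a log2 fold change of 0.38 ± 0.154 (SE; limma, adjusted p = 0.232). Without midkine 5 Mpo rose, with a log2 fold change of 0.40 (limma, adjusted p = 0.0208). With quantile normalization of all 6 libraries the log2 fold change was 0.25. A non-coding antisense gene, Gm11505, overlaps 512 exonic bases of Mpo, and the strand setting of the counting is not given in the sources used here.

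Elane encodes neutrophil elastase, which cuts matrix and bacterial proteins and is the gene most often mutated in severe congenital neutropenia in people. It had 555, 447 and 168 normalized counts in midkine 3, 4 and 5, against 270, 308 and 238 in control 1, 2 and 4. Midkine 3 and 4 lay above all controls and midkine 5 below all of them. Midkine 5 rested on 185 reads, with an exact Poisson 95% interval of 145 to 194 normalized counts that covers counting error only, and the lowest control had an interval of 209 to 270. The means were 390 ± 200 with midkine and 272 ± 35.1 in control (SD, n = 3 each), with a log2 fold change of 0.36 ± 0.399 (SE; limma, adjusted p = 0.629). Without midkine 5 Elane rose, with a log2 fold change of 0.88 ± 0.133 (SE; limma, adjusted p = 0.000237), and without midkine 3 the value was 0.020 and without midkine 4 it was 0.18. The size of the Elane difference was therefore set by which midkine libraries were used.

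Prtn3 encodes proteinase 3, an elastase-like protease known as the target of antibodies in human vasculitis. It had 1194, 989 and 2090 normalized counts in midkine 3, 4 and 5, against 989, 833 and 787 in control 1, 2 and 4. The groups did not overlap, but midkine 4 (989.1) and control 1 (988.7) were level, so the separation rested on a difference of less than 1 normalized count. The means were 1424 ± 586 with midkine and 870 ± 106 in control (SD, n = 3 each), with a log2 fold change of 0.64 ± 0.268 (SE; limma, adjusted p = 0.239). Without midkine 5 the log2 fold change was 0.33 (limma, adjusted p = 0.0600), so Prtn3 is the granule protein gene that did not pass there. Exons of Prtn3 and the opposite-strand gene Plppr3 share 159 bases. These bases lie at the 5′ end of both gene spans, whereas the libraries read transcripts next to the poly(A) tail at the 3′ end. Sharing of reads between the 2 genes was not tested. Plppr3 had 85.1, 73.9 and 292 normalized counts in midkine 3, 4 and 5, against 138, 125 and 162 in control 1, 2 and 4.

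Ctsg encodes cathepsin G, a chymotrypsin-like protease stored beside elastase. Its gene is on chromosome 14, 56099881 to 56102574 on the minus strand. It had 247, 285 and 484 normalized counts in midkine 3, 4 and 5, against 185, 161 and 199 in control 1, 2 and 4. All midkine libraries were above all controls, and midkine 5 was far above the other two. The means were 338 ± 127 with midkine and 181 ± 19.5 in control (SD, n = 3 each), with a log2 fold change of 0.84 ± 0.256 (SE; limma, adjusted p = 0.151). Without midkine 5 Ctsg rose by less, 0.55 on the log2 scale (limma, adjusted p = 0.00915). DESeq2 on recovered reads called it with all 6 libraries (log2 fold change 0.90, adjusted p = 0.0455), as it did Gfi1 and Ms4a3, against 3.97% of the genes DESeq2 tested called higher and 1.95% called lower.

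Gfi1 encodes a zinc finger repressor needed for neutrophil differentiation. It had 25.1, 31.7 and 82.6 normalized counts in midkine 3, 4 and 5, against 15.4, 7.16 and 7.89 in control 1, 2 and 4. Each midkine library was above each control, by the widest margin in midkine 5. These were 26, 30 and 91 reads with midkine and 15, 7 and 8 reads in control, and the exact Poisson 95% intervals of midkine 3 (16.4 to 36.8) and control 1 (8.61 to 25.4) overlapped. The means were 46.5 ± 31.5 with midkine and 10.1 ± 4.55 in control (SD, n = 3 each). The log2 fold change was 1.97 ± 0.486 (SE; limma, adjusted p = 0.105), and edgeR on recovered reads gave 2.19 (adjusted p = 0.105). Gfi1 rose without midkine 5, by 1.46 on the log2 scale (limma, adjusted p = 0.0117). With DESeq2 and all libraries it rose by 2.20 (adjusted p = 0.00651). Exons of a non-coding gene on the other strand, A430072P03Rik, overlap it by 101 bases.

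Cebpe encodes C/EBPε, which is required for secondary granules in neutrophils and also for eosinophils. It had 136, 87.6 and 70.8 normalized counts in midkine 3, 4 and 5, against 104, 87.9 and 59.2 in control 1, 2 and 4. The groups overlapped and only midkine 3 was above every control. The means were 98.2 ± 34.0 with midkine and 83.6 ± 22.5 in control (SD, n = 3 each), with a log2 fold change of 0.21 ± 0.301 (SE; limma, adjusted p = 0.706). It was −0.047 without midkine 3 and −0.013 without control 4, and 0.42 without midkine 5 (limma, adjusted p = 0.212).

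Ms4a3 had the least spread within the midkine group of all 7 genes relative to its mean. It had 129, 107 and 105 normalized counts in midkine 3, 4 and 5, against 67.7, 56.2 and 58.2 in control 1, 2 and 4. No midkine library came near a control, and midkine 5 lay beside midkine 4. The means were 113 ± 13.1 with midkine and 60.7 ± 6.13 in control (SD, n = 3 each), with a log2 fold change of 0.89 ± 0.185 (SE; limma, adjusted p = 0.0871). Ms4a3 rose without midkine 5, by 0.94 (limma, adjusted p = 0.00135), and with DESeq2 on all libraries, by 0.90 (adjusted p = 0.0154). Its log2 fold change was between 0.80 and 0.97 whichever library was left out.

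**Figure D2:**
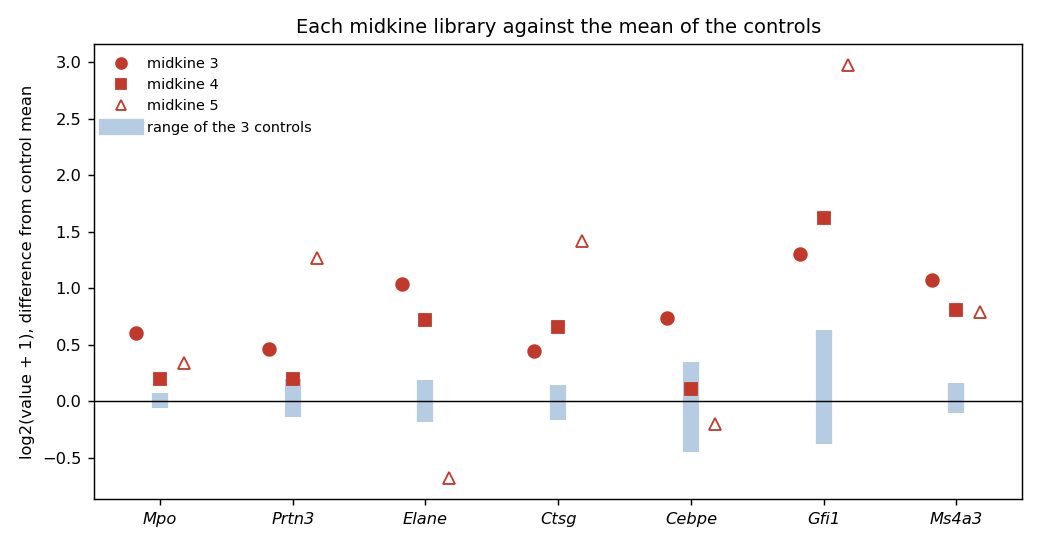
Difference of log2(normalized count + 1) between each midkine library and the mean of the 3 controls, for the 7 genes; pale bars give the range of the controls. Midkine 5 (open triangles) is at −0.68 for Elane and at 2.98 for Gfi1, while Ms4a3 lies between 0.79 and 1.07 in all 3 midkine libraries.

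In midkine 3 and 4 all 7 genes lay above the control mean on the log2(value + 1) scale. In midkine 5 Elane and Cebpe lay below it (−0.68 and −0.20), so the 7 genes did not move as a block in that library. Against the control mean, midkine 3 was higher by 0.60 for Mpo, 1.04 for Elane, 0.46 for Prtn3 and 0.45 for Ctsg on the log2(value + 1) scale. Midkine 4 was higher by 0.19 for Mpo, 0.72 for Elane, 0.19 for Prtn3 and 0.65 for Ctsg. In midkine 5 the same differences were 0.34 for Mpo, −0.68 for Elane, 1.27 for Prtn3 and 1.42 for Ctsg. Elane was thus the granule protein gene with the largest difference in midkine 3 and 4, and the lowest one in midkine 5.

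The share that each gene took of the granule protein reads does not depend on the scaling between libraries, and it is a share of reads, not of transcripts. Together Mpo, Elane, Prtn3 and Ctsg took 0.0724, 0.0563 and 0.0733% of all reads in midkine 3, 4 and 5, against 0.0490, 0.0483 and 0.0451% in control 1, 2 and 4. Within these reads Elane took 12.4, 12.4 and 3.49% in midkine 3, 4 and 5, against 8.96, 10.2 and 8.34% in control 1, 2 and 4. The Wilson 95% interval in midkine 5 was 3.03 to 4.02%, below the intervals of all other libraries, of which the lowest began at 7.39%. Prtn3 took 26.6, 27.5 and 43.4% in midkine 3, 4 and 5, against 32.9, 27.6 and 27.6% in control 1, 2 and 4. Mpo took the most reads in every library but midkine 5, with 55.5, 52.1 and 43.0% in midkine 3, 4 and 5, against 52.0, 56.9 and 57.1% in the controls. There Prtn3 and Mpo were level, with overlapping intervals of 42.1 to 44.8% and 41.7 to 44.3%.

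**Figure D3:**
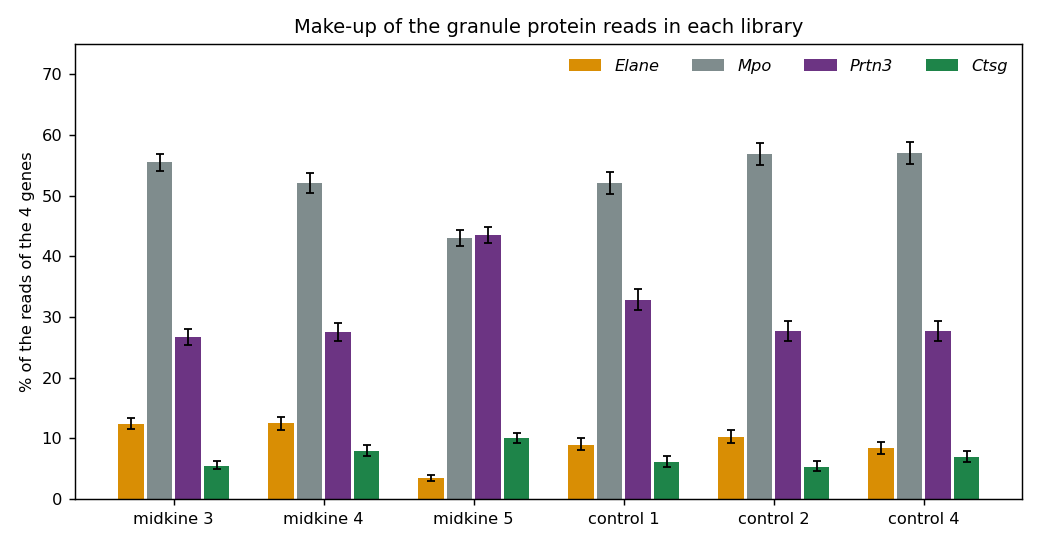
Share of the reads of Elane, Mpo, Prtn3 and Ctsg taken by each gene (vertical axis, %) in the 6 libraries, with Wilson 95% intervals that cover counting error only. Elane takes 3.49% in midkine 5 and 8.34 to 12.4% in the other 5 libraries.

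The 6 ratios between these 4 genes were compared between the groups with a two-sided exact permutation test over libraries, for which 3 against 3 libraries cannot give a p under 0.10. The exact p was 0.30 for Mpo to Ctsg and between 0.40 and 1.0 for the other 5, and all 6 adjusted p were 1.0 (Benjamini-Hochberg over the 6 pairs). The log2 ratio of Elane to Prtn3 was −1.10, −1.15 and −3.63 in midkine 3, 4 and 5, against −1.87, −1.43 and −1.72 in control 1, 2 and 4. The mean difference was −0.28 with all libraries (exact p = 1.0) and 0.55 without midkine 5 (exact p = 0.20). The ratio of Prtn3 to Ctsg varied least, with log2 values of 2.27, 1.79 and 2.11 in midkine 3, 4 and 5, against 2.41, 2.37 and 1.98 in the controls.

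Elane and Prtn3 lie next to each other, which makes their split in midkine 5 a difference between neighbours. Elane spans 79886247 to 79888215 and Prtn3 79874476 to 79883174 on chromosome 10 of GRCm38, both on the plus strand and 3072 bases apart. Their 250 bases before the RefSeq transcription start are shown with those of Mpo and Ctsg, because short motifs recur in them. Capitals mark GGAAGT, the core bound by PU.1 and other ETS factors, and AACGG, a core bound by MYB. The sequences are from RefSeq on GRCm38.p6, 5′ to 3′ on the strand of the gene. The RefSeq starts of Elane, Mpo and Prtn3 lie inside the GENCODE gene spans given here. The Elane and Mpo windows thus run into those spans, and the Prtn3 window lies wholly within its span.
Elane (chr10:79886062-79886311, plus strand): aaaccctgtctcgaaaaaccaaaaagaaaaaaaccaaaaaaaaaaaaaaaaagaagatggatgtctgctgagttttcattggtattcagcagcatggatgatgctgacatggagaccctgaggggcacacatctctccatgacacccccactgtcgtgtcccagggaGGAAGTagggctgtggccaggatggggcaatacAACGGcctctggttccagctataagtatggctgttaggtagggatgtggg
Prtn3 (chr10:79879417-79879666, plus strand): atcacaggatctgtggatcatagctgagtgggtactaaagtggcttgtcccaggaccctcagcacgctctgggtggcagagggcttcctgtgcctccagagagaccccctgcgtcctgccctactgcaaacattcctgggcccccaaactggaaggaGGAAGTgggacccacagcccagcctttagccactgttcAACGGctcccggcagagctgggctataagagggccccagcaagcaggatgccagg
Mpo (chr11:87793534-87793783, plus strand): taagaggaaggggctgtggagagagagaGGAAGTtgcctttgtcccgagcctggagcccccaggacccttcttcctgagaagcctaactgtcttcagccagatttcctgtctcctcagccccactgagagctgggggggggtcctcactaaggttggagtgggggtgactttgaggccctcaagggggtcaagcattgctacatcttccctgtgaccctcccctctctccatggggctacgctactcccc
Ctsg (chr14:56102575-56102824, minus strand): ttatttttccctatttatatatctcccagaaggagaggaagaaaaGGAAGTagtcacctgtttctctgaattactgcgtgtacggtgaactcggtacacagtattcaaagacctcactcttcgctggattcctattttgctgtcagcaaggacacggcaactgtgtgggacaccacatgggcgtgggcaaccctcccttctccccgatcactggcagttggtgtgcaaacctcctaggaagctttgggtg

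RefSeq promoter windows matched 6 of the 7 genes (Elane, Prtn3, Mpo, Ctsg, Gfi1 with 2 starts, and Ms4a3). Searching both strands, GGAAGT was found in all of these but Gfi1, against 19.99% of the windows of 27025 genes (5401 windows, 1 per gene). The longer match GAGGAAGT, which contains GGAAGT, was in Elane, Prtn3 and Mpo, against 2.44% of windows. AACGG was in Elane and Prtn3, against 14.8%. In Elane GAGGAAGT starts 85 bases and AACGG 50 bases before the transcription start, and in Prtn3 these distances are 95 and 55 bases. Both motifs together were in 0.300% of windows (81 windows). No motif test was planned or run, so these shares only describe the windows and are no support for enrichment. Elane and Prtn3 are neighbouring genes for similar proteases, so their windows may not be independent. GCAAT, a core bound by C/EBP factors, was in Elane and Mpo, against 23.3%, TGTGGT, a RUNX core, was in Ctsg, against 14.2%, and AAATC, a GFI1 core, was in Mpo, against 33.0%. These matches are letters in a window, and no binding was measured. The windows of Elane and Prtn3 hold the same ETS and MYB letters in the same order. Whether these letters bear on the levels of either gene was not tested.

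Other genes beside the members on their chromosomes were looked at as well. Ctsg lies among mast cell protease and granzyme genes, and its neighbour Mcpt8, a basophil protease, had 259, 238 and 69.9 normalized counts in midkine 3, 4 and 5, against 50.3, 102 and 61.1 in control 1, 2 and 4. Mcpt8 and Ctsg thus differed in midkine 5, where Ctsg was highest. Slc7a8, an amino acid transporter next to Cebpe, had 382, 629 and 1342 in midkine 3, 4 and 5, against 230, 188 and 197 in control 1, 2 and 4, whereas Cebpe overlapped between the groups. Ms4a2, the β chain of the high-affinity IgE receptor and the neighbour of Ms4a3, had 50.3, 42.2 and 39.0 with midkine, against 12.3, 24.5 and 10.8 in control. Both Ms4a neighbours were higher in every midkine library, and Ms4a2 had a log2 fold change of 1.49 with all libraries (limma, adjusted p = 0.0920) and rose by 1.56 without midkine 5 (adjusted p = 0.00318). Tspoap1, next to Mpo, had 88.9, 86.6 and 261 with midkine, against 66.7, 91.0 and 81.9 in control, and overlapped. Rpap2 and Evi5, which flank Gfi1, had log2 fold changes of 0.10 and 0.021 with all libraries (limma, adjusted p = 0.811 and 0.949) and of 0.018 and 0.057 without midkine 5 (adjusted p = 0.963 and 0.806).

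The profiles of the 7 genes over the 6 libraries were set against those of all other genes. Likeness was the root-mean-square difference between log2(value + 1) profiles, each centred on its own mean, ranked over 10129 genes, and it is a description of all 6 libraries, midkine 5 included, without a test. The genes nearest to Elane were Fcmr (0.11), Cd79a (0.15) and Ttc7b (0.16), of which Fcmr and Cd79a are B cell surface proteins. Cd79a had 437, 367 and 113 normalized counts in midkine 3, 4 and 5, against 188, 265 and 156 in control 1, 2 and 4. Prtn3, the neighbour of Elane on the chromosome, ranked 8694 from it, Ctsg 8884, Mpo 2421 and Cebpe 616. Nearest to Ctsg were Pf4, Prmt6 and Clec4d, with Prtn3 at rank 506. Nearest to Prtn3 were Nme6, Prkab1 and Hagh, nearest to Mpo were Arel1, F10 and Dnah2, and nearest to Ms4a3 were Cd300lf, Tmem104 and Slc15a3. Slc7a8, Slc28a2 and Tollip were nearest to Gfi1, and Wdsub1, Yju2 and Mr1 to Cebpe. Counted from Gfi1, Ctsg ranked 246 and Prtn3 466. Mpo ranked 438 from Ms4a3 and 684 from Cebpe.

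The granule partners listed here include genes that store, process or inhibit granule proteases, and also the lysozyme genes. Of these partners, Ctsc, Srgn, Cd63, Lyz1 and Lyz2 were called higher without midkine 5. Of 9 measured granule partners, 0 passed limma over all genes with all 6 libraries, 5 were higher and 0 lower by unadjusted p under 0.05, and 7 lay above every control in each midkine library. By these rules 10.4% and 15.5% of all genes tested were higher. Without midkine 5, 5 were called higher and 0 lower, against 9.92% and 8.52% of all genes. Their median log2 fold change was 0.64 with all libraries and 0.56 without midkine 5. Ctsc, the dipeptidase that activates elastase, cathepsin G and proteinase 3, had 1356, 1582 and 1723 normalized counts in midkine 3, 4 and 5, against 1017, 881 and 879 in control 1, 2 and 4. Its log2 fold change was 0.74 with all libraries (limma, adjusted p = 0.0844), and it rose by 0.67 without midkine 5 (adjusted p = 0.000411). Srgn, the proteoglycan serglycin on which granule proteases are packed, had 552, 575 and 490 with midkine, against 368, 364 and 312 in control. Both lay above the controls in all midkine libraries, midkine 5 included. Cd63, a granule and lysosome membrane protein, had 11561, 13699 and 15846 with midkine, against 6294, 6977 and 6454 in control. The lysozyme gene Lyz1 had 380, 474 and 756 with midkine, against 256, 290 and 286 in control. Lyz1 and Lyz2 are near-identical, so their reads may be split uncertainly. The inhibitor Serpinb1a, which blocks elastase, proteinase 3 and cathepsin G, had 455, 451 and 453 with midkine, against 371, 413 and 435 in control (log2 fold change 0.16; limma, adjusted p = 0.537). Without midkine 5 it was also 0.16 (adjusted p = 0.355). Slpi, another protease inhibitor of the list, had 780, 874 and 1807 with midkine, against 713, 680 and 671 in control. Its log2 fold change was 0.64 with all libraries (limma, adjusted p = 0.273) and 0.26 without midkine 5 (adjusted p = 0.0830). Prss57, a further granule serine protease, had 67.7, 68.6 and 98.0 with midkine, against 47.2, 69.5 and 40.4 in control, and overlapped. Ctsc, Srgn, Cd63 and Lyz1 are also made by macrophages and other myeloid cells.

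The list of other promyelocyte genes was mixed. Of 10, 2 were higher and 0 lower by unadjusted p under 0.05, where 10.4% of all genes were higher. Without midkine 5, 4 were called higher and 0 lower, where 9.92% of all genes were called higher. Their median log2 fold change was 0.43 with all libraries and 0.45 without midkine 5. Mgst1, a glutathione transferase, had 194, 300 and 376 normalized counts in midkine 3, 4 and 5, against 125, 144 and 105 in control 1, 2 and 4. Trem3, a myeloid receptor, had 112, 98.2 and 106 with midkine, against 64.6, 53.2 and 78.9 in control. Fcnb, a ficolin of granulocyte precursors, had its lowest midkine value in midkine 5, as Elane did, with 141, 136 and 54.5 normalized counts in midkine 3, 4 and 5, against 45.1, 76.7 and 69.0 in control. The log2 fold change of Fcnb was 0.70 with all libraries (limma, adjusted p = 0.344), and it rose by 1.15 without midkine 5 (adjusted p = 0.000800). P4hb, an enzyme that forms disulfide bonds, had 1583, 1694 and 4229 with midkine, against 1449, 1415 and 1565 in control, so that midkine 5 alone stood well above.

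Among 9 transcription factors of early granulocytes, 3 were higher and 1 lower by unadjusted p under 0.05, and the same counts were called without midkine 5, against the shares of all genes given above. The 3 were members of the C/EBP family. Cebpa, which starts the granulocyte programme and acts on the Mpo and Elane genes, had 870, 916 and 2174 normalized counts in midkine 3, 4 and 5, against 478, 526 and 509 in control 1, 2 and 4. The log2 fold change of Cebpa was 1.25 with all libraries (limma, adjusted p = 0.118), and it rose by 0.82 without midkine 5 (adjusted p = 5.24e-05). Cebpb, linked to emergency granulopoiesis, had 601, 765 and 891 with midkine, against 449, 362 and 428 in control. Cebpd had 334, 409 and 523 with midkine, against 282, 218 and 300 in control. Myb, an activator of early granule genes in dividing progenitors, had 653, 580 and 570 with midkine, against 749, 787 and 773 in control (log2 fold change −0.36; limma, adjusted p = 0.212). Without midkine 5 Myb fell, with a log2 fold change of −0.32 (adjusted p = 0.0358). Spi1, which encodes PU.1, had a log2 fold change of 0.17 and Runx1 one of −0.20 (limma, adjusted p = 0.531 and 0.549), and without midkine 5 these were 0.071 and −0.030 (adjusted p = 0.664 and 0.877).

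The genes that GFI1 is known to repress in mouse progenitors did not share 1 direction. Of 10, 4 were higher and 2 lower by unadjusted p under 0.05, where 10.4% of all genes tested were higher and 9.3% lower. Without midkine 5 again 4 were called higher and 2 lower, against 9.92% and 8.52% of all genes. Csf1, the macrophage growth factor, had 183, 193 and 116 normalized counts in midkine 3, 4 and 5, against 87.2, 74.7 and 83.8 in control 1, 2 and 4. Egr2, a macrophage transcription factor, had 78.3, 105 and 38.1 with midkine, against 23.6, 36.8 and 19.7 in control. Id1, an inhibitor of helix-loop-helix factors, had 204, 260 and 167 with midkine, against 106, 102 and 105 in control. Meis1, a homeobox gene of progenitors, had 67.7, 51.7 and 58.1 with midkine, against 90.3, 86.9 and 93.7 in control. Irf8, which steers progenitors away from neutrophils, had 3447, 3783 and 4314 with midkine, against 4974, 5459 and 4916 in control. The groups did not overlap, and the log2 fold change of Irf8 was −0.42 with all libraries (limma, adjusted p = 0.195). Without midkine 5 Irf8 fell, with a log2 fold change of −0.50 (adjusted p = 0.00208).

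Late granule genes and genes of mature neutrophils numbered 17, of which 5 were higher and 0 lower by unadjusted p under 0.05. By that rule 10.4% of all genes tested were higher and 9.3% lower. Without midkine 5, 8 were called higher and 0 lower, against 9.92% and 8.52% of all genes. The median log2 fold change of the list was 0.30 with all libraries and 0.32 without midkine 5. Mmp9, a gelatinase of tertiary granules, had 2089, 2514 and 4507 normalized counts in midkine 3, 4 and 5, against 1129, 1097 and 1383 in control 1, 2 and 4. Camp, the cathelicidin peptide of secondary granules, had 3794, 4801 and 6430 with midkine, against 2141, 1918 and 1832 in control. S100a9, a calprotectin subunit of the neutrophil cytosol, had 61919, 64392 and 63448 with midkine, against 42030, 36656 and 41131 in control. These 3 genes lay above the controls in every midkine library. Camp had a log2 fold change of 1.32 with all libraries (limma, adjusted p = 0.0757) and rose by 1.12 without midkine 5 (adjusted p = 6.97e-06). Retnlg, a resistin-like gene of neutrophils, had 2773, 2801 and 1660 with midkine, against 1280, 1454 and 1118 in control. Camp is a secondary granule gene, as are Ltf, Lcn2 and Ngp, which had log2 fold changes of 0.16, 0.024 and 0.28 (limma, adjusted p = 0.560, 0.956 and 0.361). Without midkine 5 these were 0.11, 0.23 and 0.32 (adjusted p = 0.505, 0.146 and 0.0804). Ngp lay above every control in each midkine library, Lcn2 did so in midkine 3 and 4 but not in midkine 5, and Ltf overlapped. For Lcn2, midkine 4 (1767.1) and control 1 (1766.2) were level. Hax1, G6pc3, Vps45, Jagn1, Srp54a and Clpb are mutated in severe congenital neutropenia in people. Of these 6, 0 had an unadjusted p under 0.05 by limma, and 0 passed after adjustment with all libraries or without midkine 5. DESeq2 called 0 of them with all libraries. Clpb lay below every control in each midkine library, as did 15.3% of all genes tested. It had 74.4, 61.2 and 52.6 in midkine 3, 4 and 5, against 82.1, 89.0 and 79.9 in control 1, 2 and 4.

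**Figure D4:**
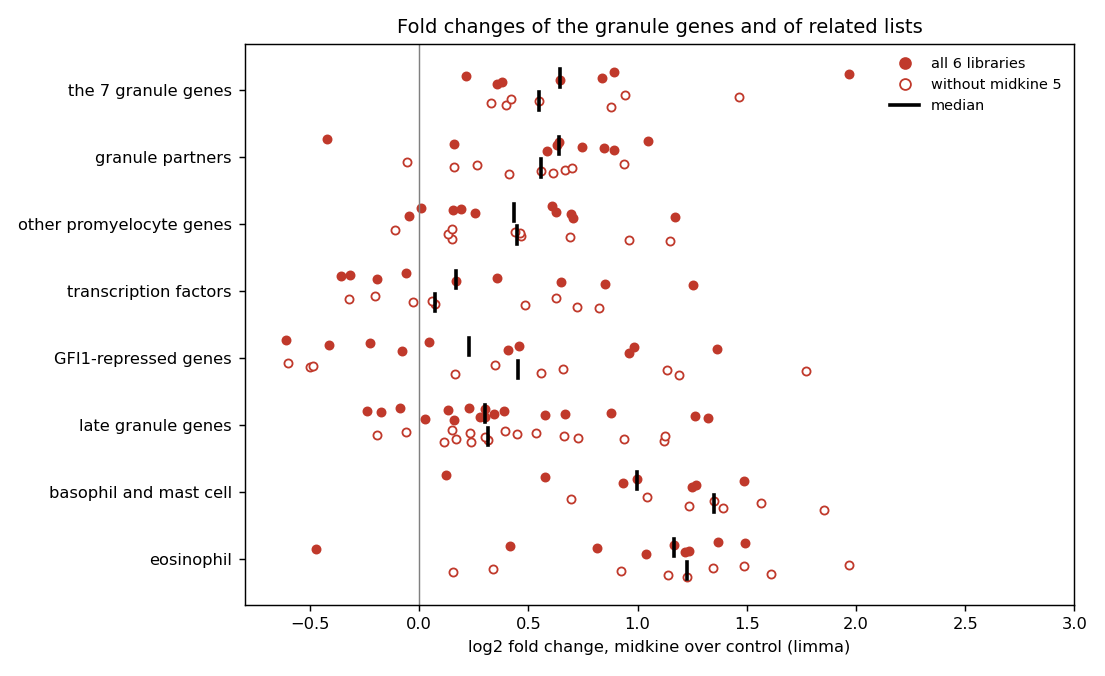
Log2 fold change of midkine over control (horizontal axis, limma) of each tested gene of 8 lists, with all 6 libraries (filled) and without midkine 5 (open); black bars are medians. The medians of the basophil and mast cell list (1.00) and the eosinophil list (1.17) lie to the right of that of the 7 granule genes (0.64).

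Markers of other cell types that use some of the same genes also differed between the groups. Cells of the basophil lineage express Ms4a3, and eosinophils need Cebpe. Of 7 measured basophil and mast cell markers, 6 were higher by unadjusted p under 0.05 with all libraries and 6 were called higher without midkine 5, and their summed level was 921 to 1437 normalized counts with midkine, against 557 to 720 in control. Of 9 eosinophil markers, 7 were higher by the first rule and 7 by the second, with a summed level of 1403 to 2058 with midkine, against 783 to 933 in control. No measured marker of either list was at 0 in any library. Fcer1a, Tpsb2, Cma1 and Mcpt4 were on the basophil and mast cell list but had no entry among the measured gene symbols. Of all genes tested, 10.4% were higher and 9.3% lower by the first rule, and 9.92% and 8.52% by the second. The counts for every cell type here are to be read beside these shares. In midkine 5 the summed basophil and mast cell level was the lowest of the midkine group. Ms4a3 was level there with midkine 4, at 105 beside 107, with overlapping Poisson 95% intervals of 87.0 to 126 and 86.8 to 130. The markers differed: Ms4a2 had 39.0 in midkine 5 beside 42.2 in midkine 4, Prss34 385 beside 500 and Mcpt8 69.9 beside 238. Of 7 macrophage markers, 5 were higher by the first rule and all 7 by the second, with a summed level of 14484 to 16717 with midkine, against 8868 to 10370 in control. Of 9 monocyte markers, 1 was higher and 3 lower by the first rule, and 2 were higher and 3 lower by the second. Stem and progenitor genes had 1 of 6 higher and 0 lower by either rule. Among 8 B cell markers, 3 were higher with all libraries and 7 were called higher without midkine 5, with a median log2 fold change of 0.57 with all libraries and 0.84 without midkine 5. Their summed level was 1404 to 2962 with midkine, against 1340 to 1877 in control. Dendritic cell markers had 6 of 10 lower by the first rule, 7 lower by the second and 0 higher by either. Their summed level was 4921 to 9523 with midkine, against 9554 to 10951 in control, so the nearest libraries of the groups were close. Cd74 and H2-Ab1 made up most of this sum in every library, and Cd74 overlapped between the groups. Of 3 measured erythroid genes 1 was higher by either rule, and of 4 stromal genes 2 were lower by the first rule and all 4 by the second. Of 6 genes of dividing cells, 3 were lower by the first rule, 4 by the second and 0 higher by either. The part of these shifts in the values of the 7 granule genes was not tested.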

How the data were processed

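The authors deposited a signal per gene symbol, their normalized count, from libraries made with the QuantSeq 3′ kit, which reads each transcript next to its poly(A) tail, per the labels' protocols. Values are not scaled to gene length, and shares of reads between genes are not shares of transcripts. The submitters' processing notes list, in no stated order, TopHat2 2.0.10, Bowtie 1.0.0, HTSeq, DESeq2, SAMtools 0.1.19 and FastQC 0.11.0, with the build mm10 (GRCm38). What is not given in the sources used here: which annotation was counted, on which strand, and how multiply mapped reads and low genes were handled.

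Within a library, deposited signal values sat on an even grid, as counts divided by a size factor would. On that grid 100% of values were whole reads (tolerance 0.01 reads). A floor of 3 reads was at most 5.01e-05% of a library. Intervals cover counting error only.

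The main test was limma 3.58.1 (eBayes with trend, R 4.3.3) on log2(value + 1), over the 13543 genes with a mean of at least 5 in the 6 libraries, all 7 members among them. It was two-sided, and calls were made at 0.05 after Benjamini-Hochberg adjustment. Fold changes are midkine over control, and understate the change of low genes. edgeR 4.0.16 and DESeq2 1.42.0 were run on recovered reads as alternatives. DESeq2 gave an adjusted p to 11549 genes. Ratios between members were tested with SciPy 1.17.1. Positions are from GENCODE M21 (GRCm38).

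The members, the gene lists and the tests were chosen with earlier results of these data known. The text names all 7 members, the measured neighbours of each, the 3 genes most like each, and, for the granulocyte lists, up to 4 genes per list with the smallest unadjusted p (marker lists of other cell types are given by counts), with likeness ranked over genes of a mean of at least 20. Serpinb1a, Slpi, Prss57, Spi1, Runx1, Irf8, Ltf, Lcn2 and Ngp were named after their values were seen.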

Additional observations from a re-analysis of the deposited data

How the results depend on the processing

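All 7 genes kept a positive fold change in each alternative run, apart from Cebpe, which was −0.047 without midkine 3 and −0.013 without control 4. The cause was not tested. The number of genes called over the whole table was 0 with limma and all 6 libraries. It was 10 with a pseudocount of 5, 9 with no filter on low values, 16 with quantile normalization, 7 with TMM scaling, 12 with upper quartile scaling, 10 with edgeR, 684 with DESeq2 and 5076 with array weights, which gave midkine 5 a weight of 0.0967. Leaving out 1 library at a time it ranged from 0 to 2497, the highest without midkine 5, where edgeR called 2508 and DESeq2 1737. Of the 7 members, 3 were called with DESeq2 and 5 with array weights. Leaving out 1 library, 0 to 5 were called, and without midkine 5 both edgeR and DESeq2 called 5. Calls were also 0 in the 5 other leave-one-out fits.

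Log2 fold changes past the threshold under an alternative were as follows. With array weights they were 0.75 for Elane, 0.27 for Mpo, 0.62 for Ctsg, 1.45 for Gfi1 and 0.81 for Ms4a3. With DESeq2 they were 0.90 for Ctsg, 2.20 for Gfi1 and 0.90 for Ms4a3. Without midkine 5, edgeR gave 0.89 for Elane, 0.42 for Mpo, 0.56 for Ctsg, 1.48 for Gfi1 and 0.96 for Ms4a3, and DESeq2 gave 0.89, 0.42, 0.56, 1.49 and 0.96 for the same genes. Leaving out 1 library at a time, limma gave 0.020 to 0.88 for Elane, 0.27 to 0.47 for Mpo, 0.33 to 0.87 for Prtn3, 0.55 to 1.03 for Ctsg, −0.047 to 0.42 for Cebpe, 1.46 to 2.30 for Gfi1 and 0.80 to 0.97 for Ms4a3.

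The mean log2 ratios of Elane to the other granule protein genes turned sign without midkine 5: to 0.48 against Mpo, 0.55 against Prtn3 and 0.33 against Ctsg. That of Mpo to Prtn3 turned to 0.071. Elane to Mpo, −0.021 with all libraries, was also positive without control 1 (0.0088) and without control 2 (0.037). Leaving out 1 library, the ranges were −0.296 to 0.48 for Elane to Mpo, −0.71 to 0.55 for Elane to Prtn3, −1.02 to 0.33 for Elane to Ctsg, −0.465 to 0.071 for Mpo to Prtn3, −0.77 to −0.151 for Mpo to Ctsg and −0.33 to −0.063 for Prtn3 to Ctsg. No paired analysis was possible because the groups share only the replicate number 4. Depth limits Gfi1 most, with 7 to 15 reads per control library.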
